A study of Mus musculus with 6 samples.

Results

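The 6 genes St8sia1, St8sia4, St6galnac3, St6gal1, St3gal1 and St3gal6 encode sialyltransferases, and 132 of 74686 open-chromatin regions measured in tumor-derived mouse CD8 T cells were assigned to them. A region was assigned to a gene when its midpoint lay inside the gene body, or when it lay between genes and this was the nearest protein-coding gene within 100 kb. The genes were chosen with the group difference described here already known, so their folds and calls are a description and test nothing about the group of genes. St8sia1 held 35 of the regions, St6gal1 23, St3gal1 22, St6galnac3 21, St3gal6 16 and St8sia4 15.

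Accessibility was measured by ATAC-seq, in which a transposase cuts exposed DNA and leaves sequencing adapters there. All 6 libraries came from OT1 CD8 T cells, whose transgenic receptor recognises an ovalbumin peptide, flow-sorted for CD8 and for CD45.1, a congenic mark of transferred cells, out of tumors of B16-OVA-GP61, a mouse melanoma line carrying ovalbumin and the GP61 epitope. In 3 libraries the mice carried no SMARTA CD4 T cells, which bear a transgenic receptor for GP61, and in the other 3 they carried them. The labels give no strain, age or sampling day and do not say whether replicates were separate animals. The p-values therefore rest on a spread between libraries that may be technical.

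Sialic acid is the outermost sugar of many cell-surface glycans. Sialyltransferases in the Golgi take it from an activated nucleotide donor and attach it to galactose, to N-acetylgalactosamine or to another sialic acid, and each enzyme prefers certain linkages and carriers. On CD8 T cells, sialylation of O-glycans and N-glycans differs between naive and activated cells, and sialic acid masks or creates ligands for galectins, selectins and Siglecs.

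The libraries held 16595779 to 27182809 counts in the regions, and the median region held 62 to 114. Replicate 2 with SMARTA cells stood apart from its group mates on the second principal component, at 89.1 against -72.1 and -36.6. All 9 CD8 T cell marker genes had open regions, with a summed level of 1954 to 2014 CPM (counts scaled to the library total) without and 1725 to 1977 CPM with SMARTA cells. The 4 CD4 T cell markers summed to 203 to 234 CPM without and 243 to 255 CPM with SMARTA cells. B cell markers had regions at 3 of 5 genes, summing to 74.3 to 97.0 CPM without and 42.4 to 59.7 CPM with SMARTA cells, and Cd79a and Ms4a1 had none. Myeloid markers had regions at 4 of 5 genes (129 to 152 CPM without, 116 to 127 CPM with) and melanoma markers at 5 of 7 (268 to 289 CPM without, 278 to 314 CPM with), Lyz2, Tyr and Tyrp1 having none. The melanoma sum was uneven over its genes. The most accessible region stood at a mean log2 CPM of 7.08 at Pmel and 5.04 at Mitf, but at 2.66 at Mlana, 1.76 at Sox10 and 0.63 at Dct. The part of other cells in the results below was not tested, and in sorted bulk cells a change in all cells and a change in the share of cells with an open site cannot be told apart.

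With SMARTA cells present, chromatin opened over the first part of St8sia1, closed at most of the regions of St6galnac3, and closed at scattered sites of St6gal1 and St3gal1. At St8sia4 and St3gal6 few regions were called. A region is called opened or closed when its Benjamini-Hochberg adjusted p from edgeR's quasi-likelihood test over all 74686 regions was below 0.05, with the fold taken as with minus without SMARTA cells. Of the 132 regions, 14 opened (10.6%, where 4.68% of all regions did), 28 closed (21.2%, where 10.4% did) and 90 did not pass. In 20 regions (15.2%, background 15.7%) all 3 libraries with SMARTA cells lay above all 3 without, and in 39 (29.5%, background 18.5%) they lay below. The median log2 fold of the 132 regions was -0.03, against 0.01 over all regions. Because the genes were selected on this contrast, nothing is read from the difference to the background. Leaving out SMARTA-free replicate 1 or 2 left 7 opened regions in either case, and leaving out replicate 1 or 3 with SMARTA cells left 9 or 8. Over all 74686 regions these fits gave, in that order, 1809, 1273, 3142 and 1787 opened regions, against 3497 with all libraries. Leaving out replicate 3 with SMARTA cells left 16 closed regions, and 4403 over all regions, against 7767 with all libraries. Of the 23 regions of the CD4 T cell markers 4 opened (17.4%) and 2 closed (8.70%), the 4 opened ones among the 14 at Cd40lg, where 1 other closed, and 1 of the 3 at Cd4 closed.

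**Figure D1:**
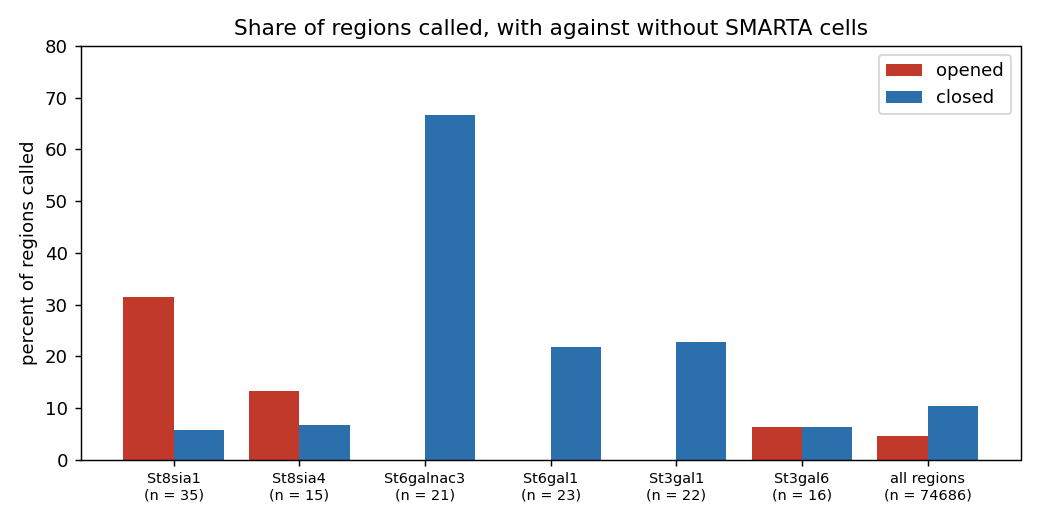
Share of regions called opened (red) or closed (blue) with SMARTA cells, in percent of the regions of each gene and of all 74686 regions. St8sia1 had 31.4% opened regions and St6galnac3 66.7% closed regions, against 4.68% and 10.4% of all regions.

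St8sia1 encodes GD3 synthase, which adds a sialic acid onto the sialic acid of ganglioside GM3 and so opens the b-series of gangliosides. The gene lies on chromosome 6 from 142821541 to 142989528 (GRCm38), minus strand, and its listed start is at 142964452. Of its 35 regions, 11 opened and 2 closed. All 11 lay inside the gene, between 0.705 kb upstream and 76.8 kb downstream of the start, with log2 folds of 0.68 to 2.27 and a median of 1.08. That stretch was drawn from the first to the last opened region, so its edges come from these same folds and mark no tested boundary. Of the 19 regions in it, the 11 opened ones included, 18 had a positive and 1 a negative fold. Of the 16 regions outside it, 6 had a positive and 10 a negative fold, and the 2 closed regions stood 129 and 148 kb downstream of the start, beyond the opened ones.

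The strongest gain was 9.41 kb downstream of the start (chromosome 6, 142954841 to 142955241). Its log2 CPM was 1.45, 1.06 and 1.50 in the libraries without SMARTA cells and 3.44, 3.27 and 3.93 in those with them, from 53, 52 and 66 counts against 211, 159 and 404. The groups were far apart, and the authors' peak lists held a peak there in 0 of 3 libraries without and in 3 of 3 libraries with SMARTA cells. Its log2 fold was 2.27 ± 0.24 (SE; edgeR adjusted p = 0.000434). The region 142956526 to 142957135, 7.62 kb downstream, had log2 CPM values of 1.69, 2.37 and 2.46 without and 3.92, 2.86 and 3.55 with SMARTA cells (1.31 ± 0.30; edgeR adjusted p = 0.0157). Here replicate 2 with SMARTA cells was the lowest of its group but still above all 3 libraries without. The region 142888982 to 142889382, 75.3 kb downstream, had values of 0.83, 0.67 and 0.84 without and 2.22, 1.09 and 2.22 with SMARTA cells (1.21 ± 0.30; edgeR adjusted p = 0.0222). It was among the least accessible regions called, and again replicate 2 with SMARTA cells was nearest to the other group.

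More accessible sites also opened. The region nearest the start, 142964957 to 142965357, had a log2 CPM of 4.12, 4.64 and 4.63 without and 5.15, 5.21 and 5.24 with SMARTA cells (0.72 ± 0.15; edgeR adjusted p = 0.00994). The region 142915477 to 142915877, 48.8 kb downstream, had 3.60, 3.71 and 3.83 without and 4.96, 4.65 and 4.93 with SMARTA cells (1.14 ± 0.15; edgeR adjusted p = 0.00103). In both the groups were apart. The most accessible region of the gene, 142862202 to 142862602 at 102 kb downstream, did not pass: its log2 CPM was 5.04, 5.55 and 5.36 without and 5.39, 4.63 and 5.25 with SMARTA cells, and the groups overlapped. The closed region of smallest p, 142834957 to 142835357, went from 1.40, 1.66 and 1.76 to 0.86, 0.67 and 0.63 (-0.93 ± 0.22; edgeR adjusted p = 0.0172), lower in all 3 libraries with SMARTA cells.

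**Figure D2:**
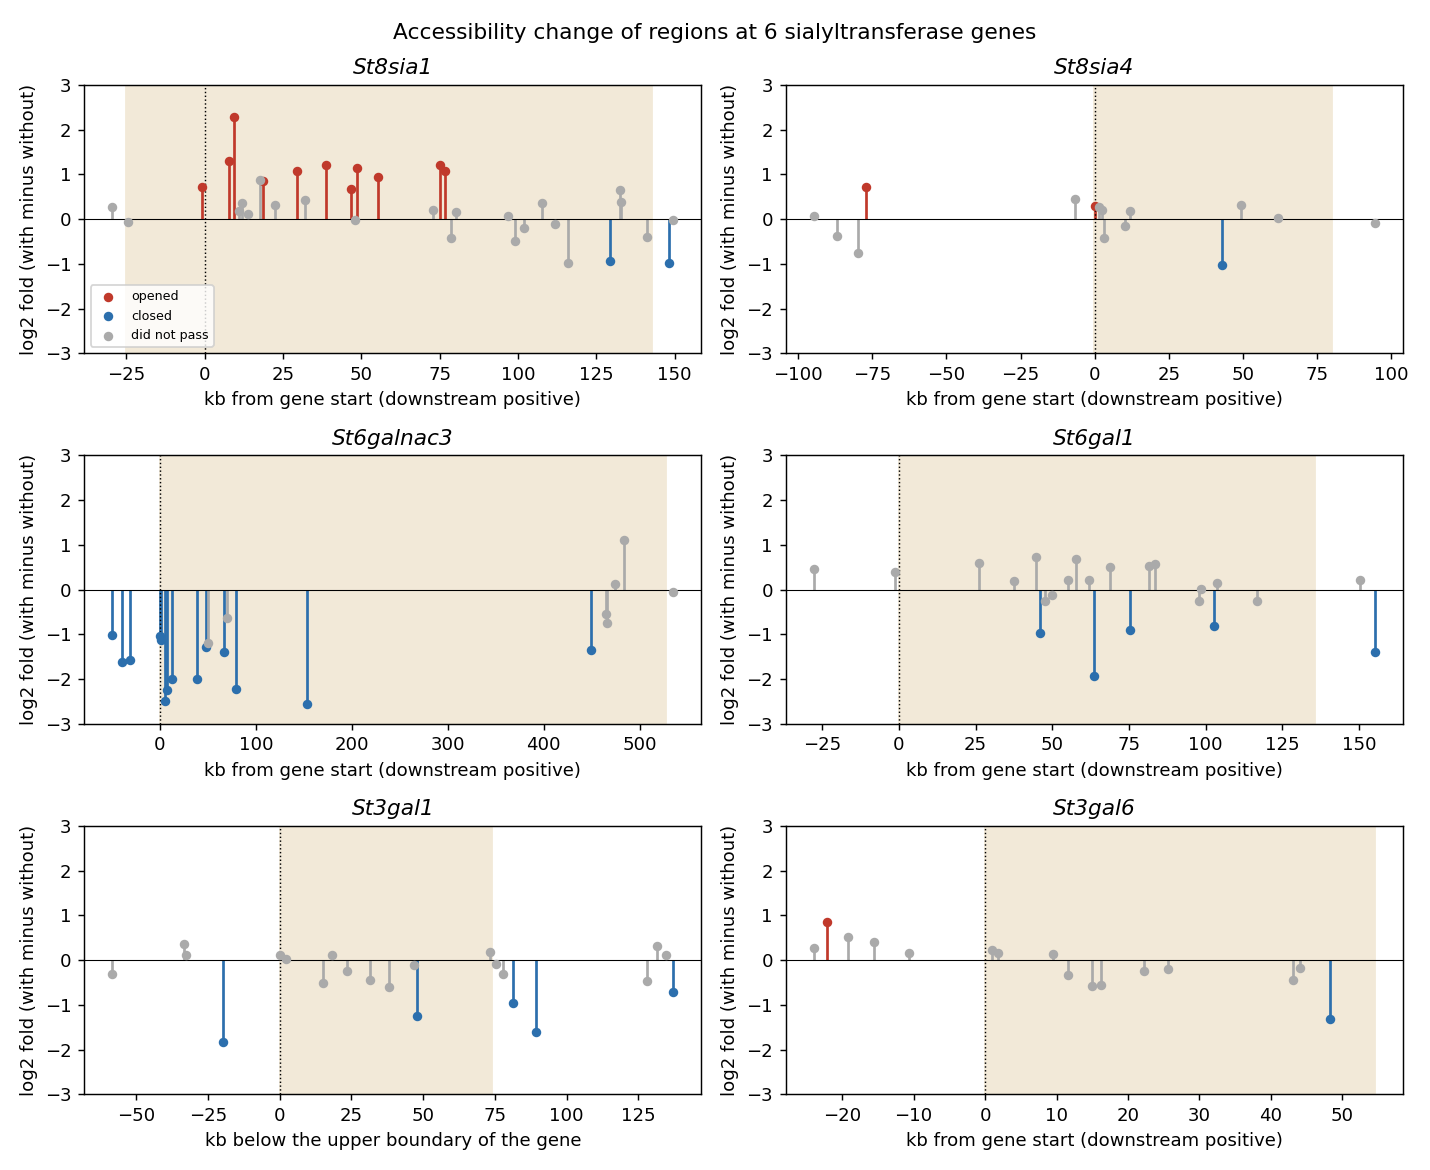
Log2 fold (with minus without SMARTA cells) of each of the 132 regions against its distance in kb from the gene start, or from the upper boundary of St3gal1, downstream positive. Shading marks the gene body, red points opened, blue points closed and grey points did not pass. The 11 opened regions of St8sia1 lie within the stretch up to 76.8 kb, among 8 that did not pass, and the closed regions of St6galnac3 run from 49.6 kb upstream to 449 kb downstream. St6galnac3 has no region between 154 and 449 kb downstream.

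Replicate 2 with SMARTA cells was the lowest of its group in 24 of the 35 St8sia1 regions (68.6%, against 38.1% of all regions), and its part in the result was not tested. Counts summed over all 35 regions were 8.07, 8.34 and 8.40 log2 CPM without and 8.81, 8.15 and 8.68 log2 CPM with SMARTA cells, so the groups overlapped through that library (0.30 ± 0.16; edgeR adjusted p = 0.27 over 15612 genes). Without it the summed fold was 0.47 ± 0.09 (edgeR adjusted p = 0.0133), and 14 regions opened. Opened regions at this gene numbered 6 after leaving out SMARTA-free replicate 1, 5 after leaving out SMARTA-free replicate 2 and 6 after leaving out replicate 3 with SMARTA cells. The opened regions of the whole table also fell in these fits, as given above. Closed regions numbered 0 after leaving out SMARTA-free replicate 2 or 3 or replicate 3 with SMARTA cells, 1 without replicate 2 with SMARTA cells, and 4 without replicate 1 with them. Among 1739 genes with 10 or more regions, 23 others had as high a share of opened regions as St8sia1 (31.4%) and 2 others as many of them.

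The promoter of St8sia1, the 250 bases before its start (RefSeq, GRCm38.p6, chr6:142964453-142964702, minus strand), is shown because accessibility changed on both sides of it. It lay outside the measured regions but under an authors' peak in all 6 libraries. Capitals mark a GC box at -22 and a CCAAT box at -201.
St8sia1 promoter: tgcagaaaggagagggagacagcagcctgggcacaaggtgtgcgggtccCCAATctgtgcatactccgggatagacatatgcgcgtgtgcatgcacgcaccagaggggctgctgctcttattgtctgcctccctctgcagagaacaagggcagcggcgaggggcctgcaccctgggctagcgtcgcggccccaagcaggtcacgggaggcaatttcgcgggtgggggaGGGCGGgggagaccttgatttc

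**Figure D3:**
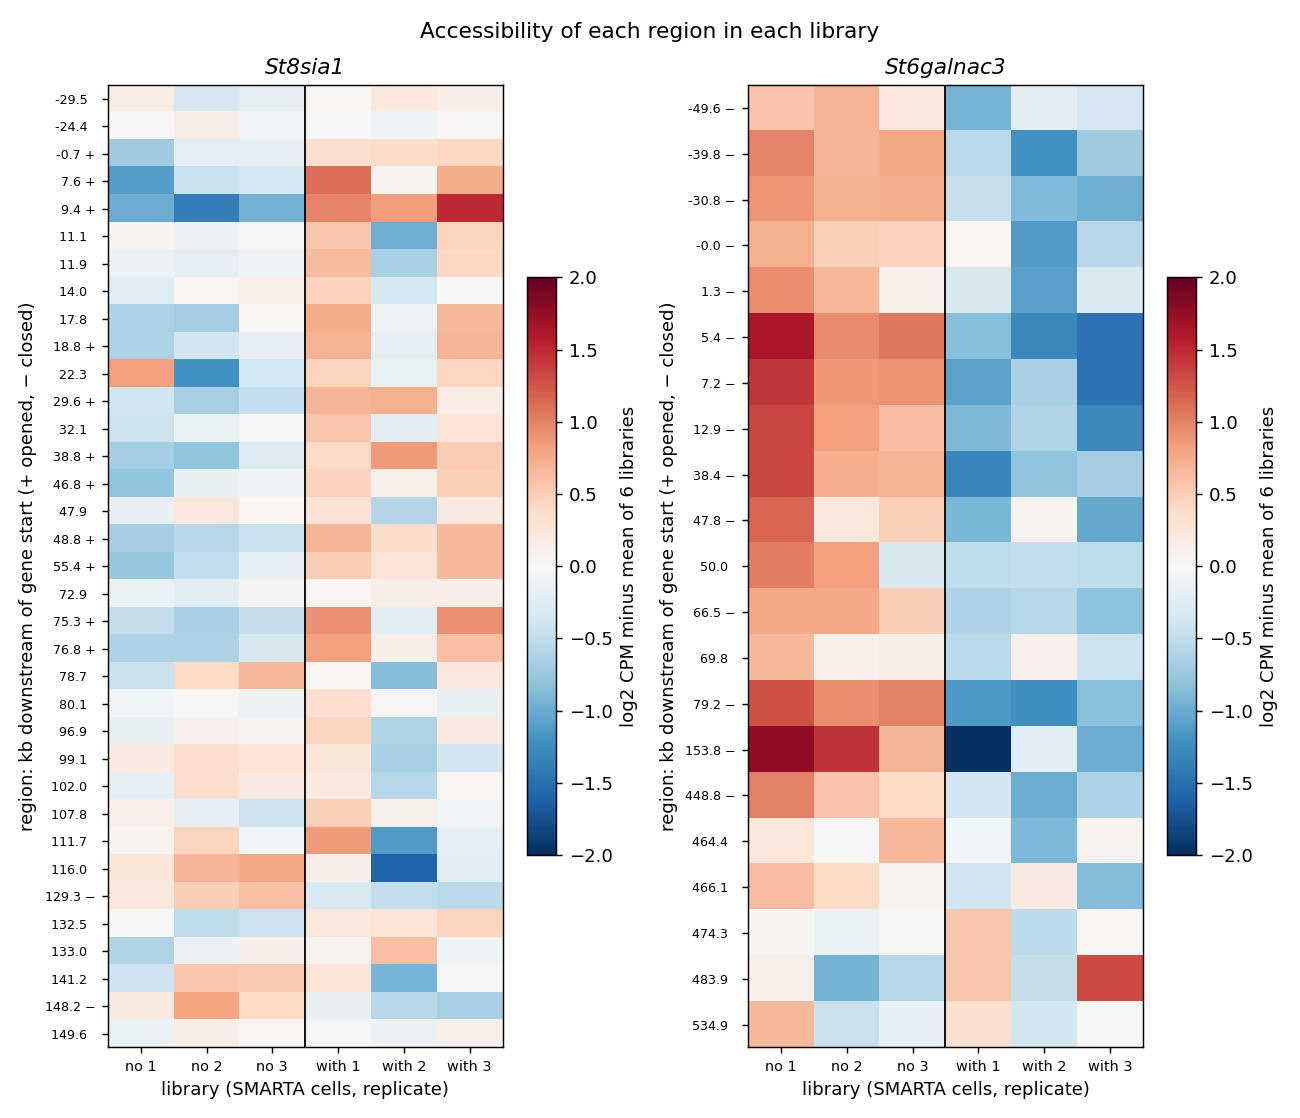
Log2 CPM of each region of St8sia1 and St6galnac3 in each of the 6 libraries, minus the mean of the region over the 6 libraries (colour). Rows are ordered by distance from the gene start in kb, and + or − after the distance marks opened or closed regions. The St8sia1 block up to 76.8 kb is mostly red with SMARTA cells, with replicate 2 paler or blue in many rows. The St6galnac3 block is mostly blue in all 3 libraries with SMARTA cells down to 449 kb, with no region between 154 and 449 kb.

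St8sia4 encodes a polysialyltransferase, which builds long chains of sialic acid on a few carrier proteins. It lies on chromosome 1 from 95587682 to 95667717, minus strand, with its start at 95667594. Of its 15 regions 2 opened, 1 closed and 12 did not pass. The region over the start, 95667423 to 95667823, was the most accessible of the gene and of all 132 regions, with a log2 CPM of 6.46, 6.74 and 6.56 without and 6.91, 6.92 and 6.79 with SMARTA cells. The groups were apart by a small step (0.29 ± 0.08; edgeR adjusted p = 0.0315). The other opened region, 95744478 to 95744878, lay 77.0 kb from the gene and had 1.95, 2.20 and 2.28 without and 2.91, 2.94 and 2.70 with SMARTA cells (0.71 ± 0.19; edgeR adjusted p = 0.0307). The closed region, 95624329 to 95624729, lay 43.1 kb downstream of the start. Its log2 CPM was 2.31, 2.39 and 1.80 without and 1.22, 1.21 and 1.13 with SMARTA cells (-1.03 ± 0.22; edgeR adjusted p = 0.0113).

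All 3 called regions of St8sia4 had separate groups. So did every other called region of the 6 genes, except that at St8sia1 10 of the 11 opened ones did. Separate groups thus nearly follow from a call and add no support to it. Some of the calls at St8sia4 were lost in other fits. The number opened was 0 or 1 on leaving out any single library, and 1 with DESeq2. The closed region did not pass after leaving out SMARTA-free replicate 2 (-0.91; edgeR adjusted p = 0.0531) or replicate 3 with SMARTA cells (-0.98; edgeR adjusted p = 0.0585). Summed over its regions the gene stood at 7.97, 8.19 and 8.04 log2 CPM without and 8.26, 8.02 and 8.11 log2 CPM with SMARTA cells, with overlapping groups (0.06 ± 0.09; edgeR adjusted p = 0.69).

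The promoter of St8sia4 (RefSeq, GRCm38.p6, chr1:95667595-95667844, minus strand) is shown because 229 of its 250 bases lay in the opened region over the start. Capitals mark RUNX cores at -211 and -193, a GC box at -63 and a CCAAT box at -44.
St8sia4 promoter: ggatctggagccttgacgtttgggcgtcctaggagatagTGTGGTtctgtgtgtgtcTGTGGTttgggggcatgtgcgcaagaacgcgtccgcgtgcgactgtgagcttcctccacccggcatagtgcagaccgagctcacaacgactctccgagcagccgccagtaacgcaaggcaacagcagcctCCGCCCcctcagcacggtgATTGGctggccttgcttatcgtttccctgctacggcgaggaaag

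St6galnac3 encodes an enzyme that attaches sialic acid to the N-acetylgalactosamine of already sialylated glycolipids and O-glycans. The gene is 527 kb long, on chromosome 3 from 153198274 to 153725133, minus strand, with its start at the upper boundary. Of its 21 regions 14 closed and 0 opened. The closed regions ran from 49.6 kb upstream to 449 kb downstream of the start, with log2 folds of -2.55 to -1.02 and a median of -1.60. They do not cover this length evenly. No region of the gene lay between 154 and 449 kb downstream, and the closed region at 449 kb alone set the far edge. In all 14 the groups were apart, as in nearly all called regions of these genes. That stretch was drawn from the first to the last closed region, so the lack of closed calls beyond it follows from that choice. All 16 regions in the stretch, the 14 closed ones included, had a negative fold. The 5 regions beyond it, 464 to 535 kb downstream, had 2 positive and 3 negative folds and 0 calls.

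The region at the start, 153724951 to 153725351, was the most accessible of the gene. Its log2 CPM was 5.21, 4.97 and 4.95 without and 4.52, 3.36 and 3.94 with SMARTA cells, lower in all 3 and most so in replicate 2 (-1.03 ± 0.24; edgeR adjusted p = 0.0176). An authors' peak stood there in all 6 libraries, so the start remained a peak in both groups. The region of smallest p, 153645694 to 153646094 at 79.2 kb downstream, had 2.19, 1.84 and 1.93 without and -0.23, -0.30 and 0.09 with SMARTA cells, from 90, 91 and 90 counts against 15, 12 and 26. Its log2 fold was -2.22 ± 0.24 (edgeR adjusted p = 0.000427), and its peak was in 3 of 3 lists without and in 0 of 3 with SMARTA cells.

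Further losses lay near the start, farther inside the gene and upstream of it. The region 153719561 to 153719961, 5.37 kb downstream, had 3.41, 2.74 and 2.86 without and 0.94, 0.50 and 0.32 with SMARTA cells (-2.49 ± 0.27; edgeR adjusted p = 0.000448). The region 153717738 to 153718138, 7.20 kb downstream, had 2.50, 1.95 and 1.98 without and 0.01, 0.44 and -0.39 with SMARTA cells (-2.24 ± 0.28; edgeR adjusted p = 0.000862). Both were far lower in every library with SMARTA cells. The largest fold, at 153571160 to 153571560, 154 kb downstream, was also the least precise. Its values were 2.06, 1.73 and 0.96 without and -2.38, 0.07 and -0.70 with SMARTA cells, where replicate 1 held 2 counts (-2.55 ± 0.50; edgeR adjusted p = 0.00794). A site 39.8 kb upstream of the gene, 153764739 to 153765139, was about as accessible as the start and fell from 5.25, 4.94 and 5.04 to 3.72, 3.05 and 3.54 (-1.62 ± 0.18; edgeR adjusted p = 0.000534). It was chosen for naming after its values were seen.

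In 7 of the 14 closed regions the authors' lists had a peak in all 3 libraries without and in 0 with SMARTA cells, as did 25.6% of the 7767 closed regions of the whole table. Nothing is read from that difference, since the gene was selected on this contrast. The lists held 25, 18 and 19 peaks in the gene body without and 10, 4 and 7 with SMARTA cells. Such numbers also depend on depth, which was lowest in replicate 2 with SMARTA cells (16595779 counts in the regions). They were not set against the peak totals of the libraries or against other genes. Counts summed over the 21 regions were 7.37, 6.98 and 6.97 log2 CPM without and 6.13, 5.51 and 5.90 log2 CPM with SMARTA cells. The groups were apart, and the summed fold was -1.25 ± 0.16 (edgeR adjusted p = 0.00203). Over the 15612 genes tested, the sum passed as lower with SMARTA cells in 5.92% and as higher in 2.15%, and St6galnac3 was the 1 gene of the 6 whose sum passed. Its count of closed regions stayed between 10 and 15 on leaving out each library. Among the 1739 genes with 10 or more regions, 3 others had as high a share of closed regions (66.7%) and 10 others as many of them.

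The promoter of St6galnac3 (RefSeq, GRCm38.p6, chr3:153725134-153725383, minus strand) is shown because 218 of its 250 bases lay in the closed region at the start. Capitals mark an NFAT core at -159, an E-box at -97 and a GC box at -86.
St6galnac3 promoter: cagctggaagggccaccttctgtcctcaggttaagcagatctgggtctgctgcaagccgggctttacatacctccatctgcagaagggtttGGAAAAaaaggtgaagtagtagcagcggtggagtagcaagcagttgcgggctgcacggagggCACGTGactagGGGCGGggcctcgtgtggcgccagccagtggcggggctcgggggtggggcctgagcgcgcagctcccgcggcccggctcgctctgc

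In these 3 promoters 7 motifs were searched on both strands, and positions give the first base of a match relative to the start. The GC box GGGCGG was in all 3, and in 32.8% of 32841 promoters of the same length. The CCAAT box CCAAT (33.9% of promoters) was in those of St8sia1 and St8sia4. Among these 3, the RUNX core TGTGGT (14.1%) was in that of St8sia4 only. The E-box CACGTG (6.02%) and NFAT core GGAAAA (20.4%) were among the 3 in that of St6galnac3 only. The ETS core CCGGAA (12.0%) and the AP-1 letters TGACTCA (4.46%) were in none of the 3. No 2 of these motifs overlapped in them. The windows were GC-rich, at 63.6% for St8sia1, 60.4% for St8sia4 and 64.8% for St6galnac3, where the median promoter had 52.4%. The promoters of St3gal6 and St6gal1, not shown, were searched as well. The NFAT core was before both listed starts of St3gal6, the RUNX core and CCAAT box before its first and the GC box before its second. Each listed start of St6gal1 had a CCAAT box before it. A match of letters is a description and does not show a bound factor.

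St6gal1 encodes the main enzyme that caps the galactose of N-glycans with sialic acid in the linkage that CD22 recognises. It lies on chromosome 16 from 23224729 to 23360350, plus strand, with 3 listed starts. Of its 23 regions 5 closed, 0 opened and 18 did not pass. The strongest loss, 23288150 to 23288550, lay 2.12 kb from the nearest listed start. Its log2 CPM was 2.53, 1.80 and 2.44 without and 0.33, 0.50 and 0.45 with SMARTA cells, low in all 3 of the latter (-1.93 ± 0.25; edgeR adjusted p = 0.00105). The region 23379683 to 23380083, 19.5 kb past the gene, fell from 2.28, 1.99 and 2.66 to 0.78, 0.92 and 1.18 (-1.40 ± 0.24; edgeR adjusted p = 0.00386). The region 23270529 to 23270929 fell from 2.50, 2.28 and 3.03 to 1.58, 1.60 and 1.87 (-0.96 ± 0.24; edgeR adjusted p = 0.0222). In each of these 3 the groups were apart, and the lists had a peak in 3 of 3 libraries without and in 0 of 3 with SMARTA cells.

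The more accessible sites of St6gal1 were not called. Its most accessible region, 23328157 to 23328557, had 4.58, 4.33 and 4.64 without and 4.86, 4.68 and 4.42 with SMARTA cells (0.14 ± 0.15; edgeR adjusted p = 0.59). The region nearest the first start, 23223324 to 23223724, had 3.45, 3.21 and 3.75 without and 3.99, 3.66 and 3.98 with SMARTA cells (0.40 ± 0.20; edgeR adjusted p = 0.202). In both the groups overlapped. The sum over the gene was 7.32, 6.94 and 7.38 log2 CPM without and 7.28, 7.08 and 7.23 log2 CPM with SMARTA cells, the groups again overlapping (-0.02 ± 0.11; edgeR adjusted p = 0.916). Closed regions at this gene numbered 3 after leaving out SMARTA-free replicate 1, 2 after leaving out SMARTA-free replicate 3 and 2 after leaving out replicate 3 with SMARTA cells. In the whole table these fits gave 6080, 4850 and 4403 closed regions, against 7767 with all libraries.

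St3gal1 encodes the enzyme that caps core 1 O-glycans with sialic acid, and mice without it lose many peripheral CD8 T cells. It lies on chromosome 15 from 67102875 to 67176946. Of its 22 regions 5 closed and 0 opened, and 4 of the 5 lay outside the gene body. The strongest loss, 67196338 to 67196738, stood 19.6 kb above the gene, where the log2 CPM was 2.33, 2.41 and 2.39 without and 0.60, 0.78 and 0.49 with SMARTA cells (-1.82 ± 0.20; edgeR adjusted p = 0.000447). The groups were tight and far apart. On the other side of the gene, 67087418 to 67087818 fell from 3.99, 3.38 and 3.54 to 2.14, 1.89 and 2.13 (-1.61 ± 0.22; edgeR adjusted p = 0.00128). Inside the gene, 67128901 to 67129301 fell from 2.96, 3.39 and 3.27 to 1.79, 1.86 and 2.25 (-1.25 ± 0.21; edgeR adjusted p = 0.004). Both were lower in all 3 libraries with SMARTA cells.

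The region at the upper boundary of St3gal1, 67176718 to 67177118, was its most accessible, with 6.57, 6.63 and 6.58 without and 6.71, 6.79 and 6.60 with SMARTA cells. It did not pass (0.11 ± 0.06; edgeR adjusted p = 0.277), and replicate 3 with SMARTA cells lay within the other group. The sum over the gene was 8.26, 8.22 and 8.27 log2 CPM without and 8.08, 7.98 and 7.96 log2 CPM with SMARTA cells. All 3 were lower, but the sum did not pass (-0.24 ± 0.07; edgeR adjusted p = 0.0605). After leaving out replicate 1 with SMARTA cells it passed (-0.28; edgeR adjusted p = 0.0431). In the other 10 settings run it did not pass. Among them were the replicate block (-0.24; edgeR adjusted p = 0.112) and regions inside the gene body alone (-0.06; edgeR adjusted p = 0.597).

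St3gal6 encodes an enzyme that sialylates the galactose of N-acetyllactosamine chains and contributes to selectin ligands. It lies on chromosome 16 from 58469742 to 58524260, minus strand, with 2 listed starts. Its interval overlaps that of 1 other protein-coding gene, Dcbld2, and a region inside both would be assigned to both. Which regions lie in the overlap was not examined. Of the 16 regions of St3gal6 1 opened, 1 closed and 14 did not pass. The opened region, 58546181 to 58546581, lay 22.1 kb from the gene, with 4.36, 4.30 and 4.53 without and 5.35, 5.46 and 4.86 with SMARTA cells (0.85 ± 0.16; edgeR adjusted p = 0.00665). Its groups were apart. The closed region, 58475800 to 58476200, lay inside the gene 48.3 kb downstream of the first start, with 2.24, 1.61 and 1.91 without and 1.09, 0.30 and 0.49 with SMARTA cells (-1.32 ± 0.27; edgeR adjusted p = 0.00973). It too had separate groups, and it did not pass after leaving out replicate 3 with SMARTA cells. DESeq2 and limma-voom each gave 2 opened regions at this gene.

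The region at the second start of St3gal6, 58523033 to 58523433, was its most accessible, with 4.91, 5.40 and 5.31 without and 5.57, 5.43 and 5.33 with SMARTA cells. It did not pass, and the groups overlapped (0.23 ± 0.13; edgeR adjusted p = 0.288). The sum over the gene was 7.46, 7.58 and 7.52 log2 CPM without and 7.85, 7.48 and 7.49 log2 CPM with SMARTA cells, where replicate 1 alone lay above the other group (0.10 ± 0.10; edgeR adjusted p = 0.591).

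**Figure D4:**
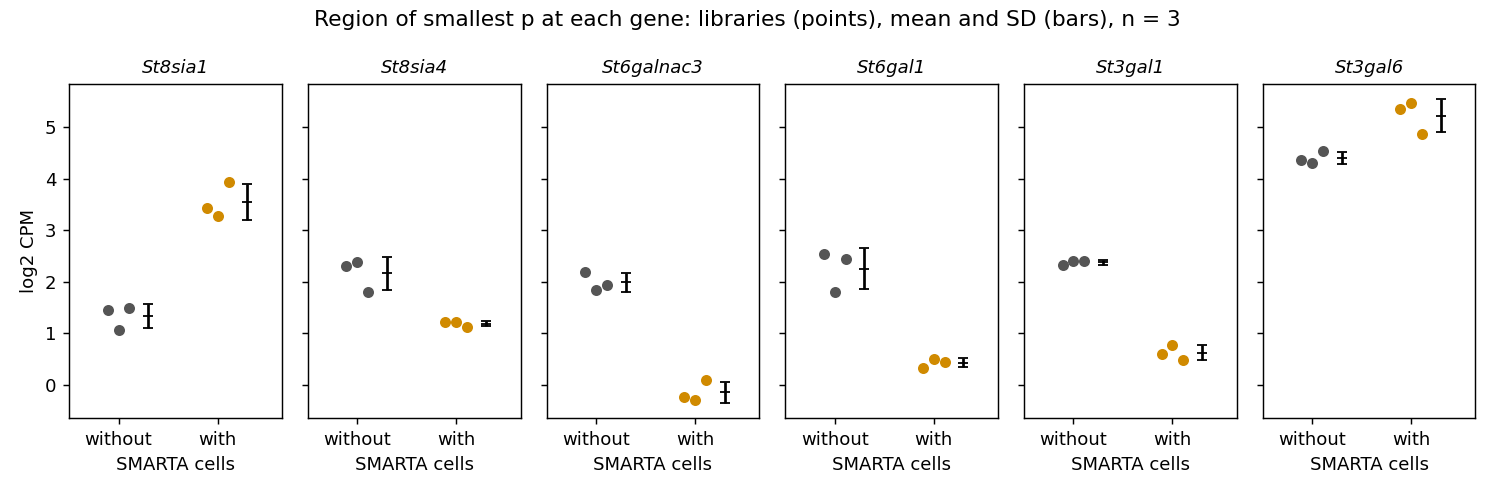
Log2 CPM of the region of smallest p at each of the 6 genes, by library (points), with mean and SD (bars, n = 3). The libraries with SMARTA cells lie above the others at St8sia1 and St3gal6 and below them at the other 4 genes, which the choice of the region fixes.

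**Figure D5:**
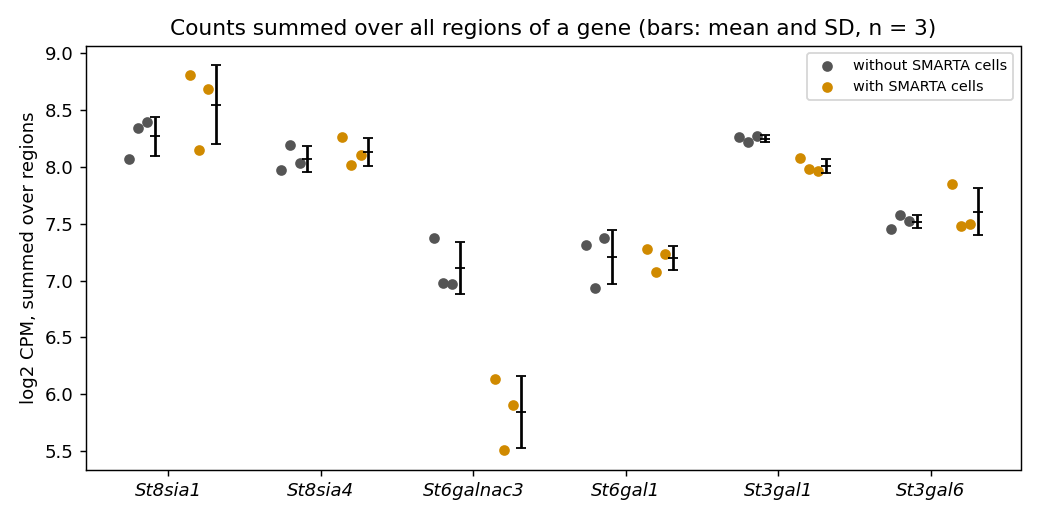
Log2 CPM of the counts summed over all regions of each gene, by library (points), with mean and SD (bars, n = 3), on an axis that does not start at 0. The sum passed the test at St6galnac3, from 7.11 ± 0.23 to 5.85 ± 0.32, and the groups overlap at St8sia1, St8sia4, St6gal1 and St3gal6.

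The region nearest the listed start opened at St8sia1 and St8sia4, closed at St6galnac3, and did not pass at St6gal1 and St3gal6. At St3gal1 the region at the upper boundary of the gene did not pass. Differences between the genes were not tested. Over all 132 regions, 15 had an authors' peak in all 3 libraries of one group and in 0 of the other: 12 were closed, 1 opened and 2 did not pass. Such regions made up 4.39% of all 74686. Among all closed regions 25.6% had peaks only without, and among all opened regions 5.78% had peaks only with SMARTA cells, in 3 of 3 libraries. Near the threshold, just inside it stood a closed region of St6galnac3, 153774507 to 153774907 (-1.02, edgeR adjusted p = 0.0437), and an opened one of St8sia1, 142945504 to 142945904 (0.84, edgeR adjusted p = 0.0482). Just outside stood St8sia1 142946479 to 142946879 (0.87, edgeR adjusted p = 0.0528), St3gal6 58543200 to 58543600 (0.51, edgeR adjusted p = 0.0542) and St6gal1 23269366 to 23269766 (0.73, edgeR adjusted p = 0.0589).

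Among the other 14 sialyltransferase genes, 9 had 61 regions, of which 2 opened (3.28%) and 8 closed (13.1%), with a median log2 fold of 0.04. These shares, and those of the lists below, stand beside 4.68% opened and 10.4% closed of all regions, and no list was tested against them. St3gal3, which sialylates galactose on glycoproteins, had 5 of its 10 regions closed, most strongly at chromosome 4, 117969719 to 117970119 (-2.85 ± 0.40; edgeR adjusted p = 0.00153). St6galnac4, an enzyme of O-glycans, had 1 of 2 closed (-2.35 ± 0.30). St3gal5, the GM3 synthase that makes the substrate of the St8sia1 enzyme, had 1 of 7 closed (-1.37 ± 0.24). St3gal2 had 1 of 9 opened (0.62 ± 0.12). The other opened region was at St8sia6, named after its value was seen.

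Genes that supply sialic acid and its activated donor (Gne, Nans, Cmas, Slc35a1, Cmah) had 33 regions, 1 opened (3.03%) and 1 closed (3.03%), with a median of 0.10. The closed one was at Cmas, the enzyme that activates sialic acid (-0.89 ± 0.24), and the opened one at Cmah, which hydroxylates the donor in mice (0.77 ± 0.22). Genes of sialic acid removal and breakdown had 36 regions, 1 opened (2.78%) and 5 closed (13.9%; median -0.05). Slc17a5, the lysosomal exporter of sialic acid, had 2 of 8 closed (strongest -2.51 ± 0.31), Npl, which cleaves free sialic acid, 2 of 11 (strongest -1.48 ± 0.28), and the sialidase gene Neu1 1 of 2 (-0.89 ± 0.23). The sialidase gene Neu2 had 1 of 2 opened (0.89 ± 0.14).

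The ganglioside backbone genes had 58 regions, 2 opened (3.45%) and 10 closed (17.2%; median -0.17). Ugcg, which makes the glucosylceramide core of gangliosides, had 4 of 23 closed (strongest -1.72 ± 0.26). B4galt5 had 1 opened and 2 closed of 18 (strongest -0.80 ± 0.22), and Gm2a 1 opened and 2 closed of 4 (strongest -0.88 ± 0.16). The O-glycan and selectin ligand genes had 116 regions, 6 opened (5.17%) and 20 closed (17.2%; median -0.05). Among them Galnt2, which starts O-glycans, had 8 of 29 closed and 1 opened (strongest -2.13 ± 0.28), and Gcnt1, which branches core 1 into core 2, had 4 of 7 closed (strongest -1.26 ± 0.32). Spn, the heavily sialylated CD43, had 4 of 11 closed (strongest -2.89 ± 0.34), whereas Selplg, the selectin ligand PSGL-1, had 4 of 12 opened (strongest 0.48 ± 0.11). The N-glycan genes had 153 regions, 13 opened and 13 closed (8.50% each; median 0.16), and Mgat5, which adds a late branch, had 4 of 32 each way. Mgat4a had 2 opened and 1 closed of 12, Man2a1 1 opened and 2 closed of 17, and Man1a 1 opened and 2 closed of 15.

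The sialic acid receptor genes had 21 regions, of which 7 closed (33.3%) and 0 opened (median -0.38). Siglecf had 3 of 5 closed (strongest -1.99 ± 0.25), Siglecg 2 of 2 (strongest -1.97 ± 0.43), Siglece 1 of 2 (-2.11 ± 0.38) and Cd22 1 of 3 (-1.19 ± 0.23). These receptors are best known from myeloid and B cells, whose marker sums without SMARTA cells also lay above those with them. Cd22 is itself one of the B cell markers, so its 3 regions count in both the B cell sum and this list. The part of such cells was not tested. The genes of proteins that can carry polysialic acid (Ccr7, Nrp2, Ncam1) had 29 regions, of which 5 closed (17.2%) and 0 opened (median -0.11). Ccr7, the lymph node homing receptor, had 4 of 15 closed, most strongly at chromosome 11, 99160693 to 99161093 (-3.41 ± 0.31; edgeR adjusted p = 0.000273), and Nrp2 had 1 of 13 closed (-1.07 ± 0.28).

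The genes whose summed accessibility ran most like each sialyltransferase over the 6 libraries were found by the smallest root mean square (RMS) difference of centred log2 CPM, among genes with 10 or more regions. For St8sia1 they were Mosmo (RMS 0.0878), Synj2 (0.0957) and Msrb3 (0.106). For St6galnac3 they were Tshz2 (0.140), Acoxl (0.140) and Dclk2 (0.147), whose own summed log2 folds were -1.05, -1.07 and -1.05. The closest for the others were Ppp3ca for St8sia4 (0.0291), Tcf12 for St6gal1 (0.0644), Ccne1 for St3gal1 (0.0296) and Sv2b for St3gal6 (0.0433). A small difference is easier to reach for a gene that varies little, so the values do not rank the genes against each other.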

How the data were processed

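Read counts per region for 6 libraries were used as deposited by the authors, without normalization, with 74686 regions, of which 73199 are 401 bases wide. The authors' peak list of each library gives a deposited score, a fold enrichment as a ratio over background, and −log10 p and −log10 q values, and only peak positions were used, except in an alternative with −log10 q of 5 or more. Per the submitters' processing notes, the build was GRCm38 and the tools were MACS2 2.1.1, DiffBind 3.4.11, Picard 2.18.9, SAMtools 1.8 and BWA 0.7.17. Their roles and settings, any duplicate removal and any transposase shift were not given in the sources used here, and leftover duplicates would inflate counts.

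Groups and replicate numbers came from the titles. Counts were tested with edgeR 4.0.16 (R 4.3.3): filterByExpr (0 regions removed), TMM scaling, glmQLFit with glmQLFTest, and p-values adjusted by Benjamini-Hochberg over all regions at 0.05, after the code was tested on simulated data. The SE was taken as the absolute fold over the square root of F. Log2 CPM used a prior count of 2. The same test was run on counts summed per gene over 15612 genes. The biological coefficient of variation was 18.0%, and every pair of libraries differed by more than sampling noise (lowest chi-square per degree of freedom 2.76). Gene bodies and promoters came from RefSeq (GRCm38.p6). Promoters of 5 of the 6 genes matched, and all 110 symbols of the gene lists matched the gene table. No exons, introns or UTRs were distinguished, and being assigned to a gene does not mean regulating it.

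Members and lists were chosen with earlier results of these data known. Within each gene the text names the opened and closed regions of smallest p, the most accessible region, the one nearest the start and, with 5 or more calls, the 3 largest folds, and from each list up to 4 genes with the most calls. The St8sia1 region at 142915477 and the St6galnac3 region at 153764739 were added after their values were seen. Alternatives were other scalings (RLE, total counts, loess), filters, DESeq2 1.42.0, limma-voom 3.58.1, a replicate block, single libraries left out and narrower assignment.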

Additional observations from a re-analysis of the deposited data

How the results depend on the processing

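Across scalings, filters, DESeq2 and limma-voom the sialyltransferase regions opened numbered 14 to 17 (14 in the reported fit) and those closed 27 or 28 (28). With single libraries left out, they ranged from 7 to 18 opened and from 16 to 28 closed. The calls over all regions moved too in those fits, from 1224 to 4259 opened (3497 in the reported fit) and from 4403 to 8410 closed (7767). Counting regions inside gene bodies alone gave 18 closed, since 10 of the 28 lie outside. The strongest region of each gene kept its direction in every setting run, and passed in all but the 2 St8sia4 settings named above. Each was picked by its p in these same libraries, so this is largely set by the choice and is no independent support.

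Summed folds that changed sign were all small and not called. With single libraries left out, St8sia4 ranged from -0.011 to 0.13 and St6gal1 from -0.15 to 0.059. St3gal6 (0.096) ranged from -0.0399 to 0.156, and was -0.12 inside the gene body alone and -0.0397 within 20 kb. The cause was not tested.

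Libraries of the same replicate number did not visibly deviate together from their group means (r = -0.02, -0.078 and 0.076). Those of unequal number gave r from -0.107 to 0.086. The labels do not say whether equal numbers mark pairs, and with so few libraries these correlations cannot settle it. The reported fit did not use the numbers. With the replicate block 13 regions opened and 25 closed. For the gene sums, the block was added after seeing the data. Regions with a peak in all 3 libraries of one group and in 0 of the other numbered 14 to 16 under stricter peak or overlap thresholds.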

Other observations

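St6galnac3 and St6galnac5, which encode related enzymes, are neighbours on chromosome 3 with 216 kb between them. Of the 19 regions of St6galnac5, 1 closed (-0.94 ± 0.28; edgeR adjusted p = 0.0493) and 0 opened, with a median log2 fold of 0.27, while 14 of the 21 regions of St6galnac3 closed, with a median of -1.29. The difference between the neighbours was not tested.

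The authors' lists also held peaks in the gene bodies that no measured region covers. St6galnac3 had 9, 1 and 3 of them without and 3, 0 and 0 with SMARTA cells, and St8sia1 had 4, 2 and 2 without and 2, 6 and 1 with SMARTA cells.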
